A study of Mus musculus with 2 samples.

Results

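The miR-30 family consists of closely related microRNAs (miRNAs), each processed from the 5′ side (5p arm) or the 3′ side (3p arm) of a short RNA hairpin. Its signal was examined in the livers of mice with and without hepatic Hnf4a. Members were chosen by miRBase mature-sequence accession, by a rule that uses no measured value, although earlier results of these data were known at the time. The 7 accessions, out of 610 features in the deposited table, were MIMAT0000128 (miR-30a-5p), MIMAT0000514 (miR-30c-5p), MIMAT0000515 (miR-30d-5p), MIMAT0000130 (miR-30b-5p), MIMAT0000248 (miR-30e-5p), MIMAT0000129 (miR-30a-3p) and MIMAT0000249 (miR-30e-3p). They comprise 5 features for 5p arms and 2 for 3p arms. The deposited table lists accessions alone, and the names come from the list that defined the members. All 7 had a value on both arrays.

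Liver RNA was profiled from liver-specific Hnf4a-null mice (Hnf4aΔH) and from floxed control mice (Hnf4af/f), to find miRNAs that depend on this transcription factor. All were 45-day-old males on a 129SV + C57BL/6 background, and each genotype was represented by 1 array. The sources used here give neither the promoter driving the deletion nor whether an array held RNA of 1 animal or of a pool. Replicate error could not be estimated from single arrays, so no difference was tested and each compares these 2 arrays, not the genotypes apart from animal and hybridization. In whole-liver RNA, fewer cells of a type and less RNA per cell cannot be told apart. The Hnf4a transcript was not analysed here, so its loss was not checked, and neither hepatocyte nor other cell type markers could be identified by name among the accessions.

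As background, HNF4a is a nuclear receptor that maintains much of the hepatocyte's gene expression. A miRNA guides the Argonaute protein to messenger RNAs mainly through its seed, the bases near its 5′ end, so miRNAs that share a seed are expected to share many targets. The miR-30 5p arms share 1 seed and are expressed in many tissues. In mouse liver, miR-30c has been described as a repressor of Mttp, which loads lipid onto lipoproteins, and in zebrafish miR-30a has been described as needed for bile duct formation.

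Mature sequences were found in the RefSeq miRNA table (GRCm38.p6) for 5 of the 7 members. They are shown because the array must tell apart members that are nearly identical. Each is written 5′ to 3′ with its seed, bases 2 to 8, in capitals.
miR-30a-5p: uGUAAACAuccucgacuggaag
miR-30e-5p: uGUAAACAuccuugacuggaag
miR-30c-5p: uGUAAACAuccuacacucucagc
miR-30a-3p: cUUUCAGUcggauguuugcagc
miR-30e-3p: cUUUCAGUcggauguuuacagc
The 5p sequences shown share the seed GUAAACA, and both 3p sequences share the seed UUUCAGU. In the RefSeq table the first seed occurred in 4 of 1679 named mature miRNAs (0.238%), the fourth being miR-384-5p. This count leaves out miR-30b-5p and miR-30d-5p, for which that table gave no sequence. The second seed occurred in 2 of 1679 (0.119%), miR-30a-3p and miR-30e-3p themselves.

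Counting positions from 1 at the 5′ end, miR-30a-5p and miR-30e-5p differ by 1 base of 22, C13U. The arms miR-30a-3p and miR-30e-3p also differ by 1 base of 22, G18A. By contrast, miR-30c-5p matches miR-30a-5p at 17 of 22 aligned positions, with the first 12 bases identical. It matches miR-30e-5p at 17 of 22 positions as well. How far each probe also binds the other members was not tested, and the probe sequences were not used here.

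The members come from 6 hairpin genes, which lie in pairs. On chromosome 1 (GRCm38.p6), Mir30a yields miR-30a-5p at chr1:23272274-23272295 and miR-30a-3p at chr1:23272315-23272336, both on the plus strand. Mir30c-2 follows after 19361 bases and yields miR-30c-5p at chr1:23291714-23291736 on the same strand. On the minus strand of chromosome 4, Mir30c-1 yields the identical miR-30c-5p at chr4:120769584-120769606. Mir30e, 2983 bases away, yields miR-30e-5p at chr4:120772660-120772681 and miR-30e-3p at chr4:120772618-120772639. Both chromosome 4 hairpins lie within the span of Nfyc, which encodes a subunit of the CCAAT-binding factor NF-Y, and Mir30f is annotated on the strand opposite Mir30e. The third pair, Mir30b and Mir30d, are direct neighbours in the annotation. Since miR-30c-5p has 2 source hairpins with the same mature sequence, its signal cannot be assigned to either.

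The 2 hairpins with both arms among the members are printed here with the mature arms in capitals and the intervening loop in lower case between them.
Mir30a: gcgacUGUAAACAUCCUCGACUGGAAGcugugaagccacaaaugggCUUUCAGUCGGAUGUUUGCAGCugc
Mir30e: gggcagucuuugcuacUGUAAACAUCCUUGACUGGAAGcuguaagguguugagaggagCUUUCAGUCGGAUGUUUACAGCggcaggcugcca
The Mir30a hairpin has 71 bases (chr1:23272269-23272339, plus strand) with 19 bases between the arms. The Mir30e hairpin has 92 bases (chr4:120772606-120772697, minus strand) with 20 bases between them.

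The miR-30 family had a similar signal on the liver-null array and on the control array. None of the 7 members (0) differed by 2-fold or even by 1.5-fold in either direction. The ratio of the brighter to the dimmer array was largest for miR-30e-5p, at 1.28, and smallest for miR-30e-3p, at 1.03. Of all 258 features with a value on both arrays, 6.59% were higher by 2-fold or more in Hnf4aΔH liver and 5.43% were lower by 2-fold or more. At 1.5-fold these shares were 15.1% and 14.7%. All 7 members were among the 129 shared features of at least median brightness, and 18.6% of those differed by 2-fold or more in either direction, against 12% of all 258. With 7 members, a count of 0 at 2-fold sets the family apart from neither share.

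**Figure D1:**
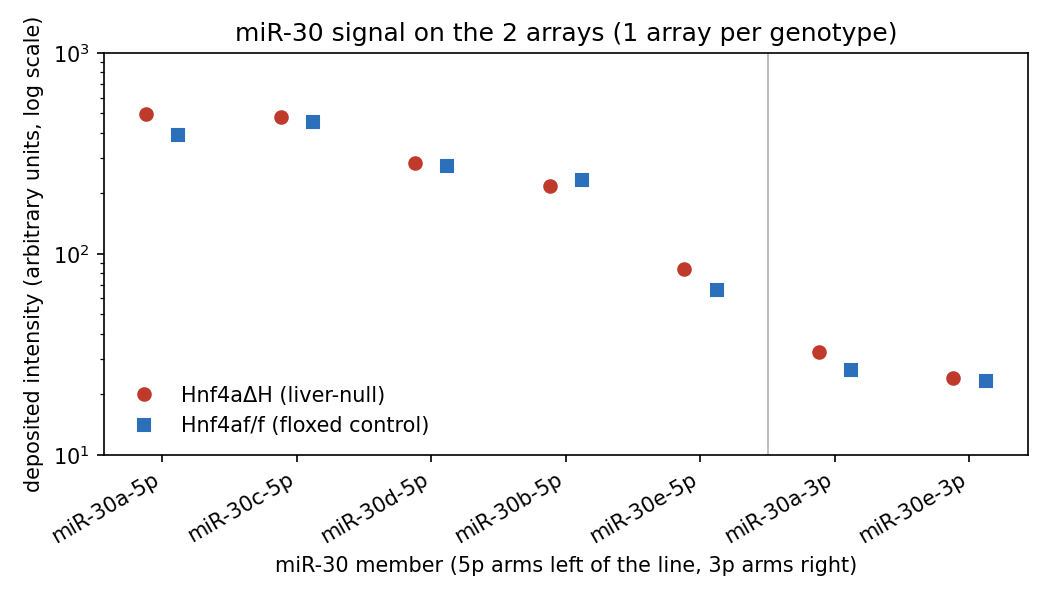
Deposited intensity (arbitrary units, log axis) of each miR-30 member on the Hnf4aΔH array (circles) and the Hnf4af/f array (squares), 1 array per genotype and no error bars. Each pair of points lies close together, from 497 and 392 for miR-30a-5p to 24.0 and 23.3 for miR-30e-3p.

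Among the 5p arms, miR-30a-5p had an intensity of 497 on the liver-null array and 392 on the control array, a ratio of 1.27. Its difference on the log2(intensity + 1) scale, liver-null minus control, was 0.34. Its close relative miR-30e-5p had an intensity of 84.4 on the liver-null array and 65.9 on the control array, with a log2 difference of 0.35. These 2 members, which differ at a single base, thus had the highest log2 differences of the family, and these lay 0.01 apart. Whether the probes separate these 2 miRNAs was not tested.

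The other 5p arms lay nearer to an equal signal. The intensity of miR-30c-5p, the Mttp regulator in mouse, was 481 on the liver-null array and 454 on the control array, with a log2 difference of 0.08. That of miR-30d-5p was 284 on the liver-null array and 273 on the control array, with a log2 difference of 0.06. For miR-30b-5p the intensity was 218 on the liver-null array and 232 on the control array. Its log2 difference of -0.09 was the only negative value in the family, and it turned to 0.37 with quantile normalization. The 5p arms of the neighbouring hairpins Mir30b and Mir30d thus had differences that were 0.15 apart. The differences of miR-30a-5p and miR-30c-5p were 0.26 apart. The miR-30c-5p signal cannot be assigned to Mir30c-2, the neighbour of Mir30a, or to Mir30c-1.

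Both 3p arms were detected. miR-30a-3p had an intensity of 32.4 on the liver-null array and 26.6 on the control array, with a log2 difference of 0.28. miR-30e-3p had an intensity of 24.0 on the liver-null array and 23.3 on the control array, with a log2 difference of 0.04. Their differences lay 0.24 apart although the sequences differ at a single base, whereas those of the equally similar 5p pair lay 0.01 apart.

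The median log2 difference was 0.08 over the 7 members and -0.06 over all 258 shared features. The members ran from -0.09 to 0.35, while the 25th and 75th percentiles of all shared features were -0.33 and 0.36. In absolute size, 6 of the 7 members lay under the array-wide median of 0.35. The median absolute difference was 0.44 over the 129 shared features of at least median brightness. Within the brightest quartile of 65 features, which held 5 of the 7 members, 3 of those 5 lay under the quartile's median absolute difference of 0.30.

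**Figure D2:**
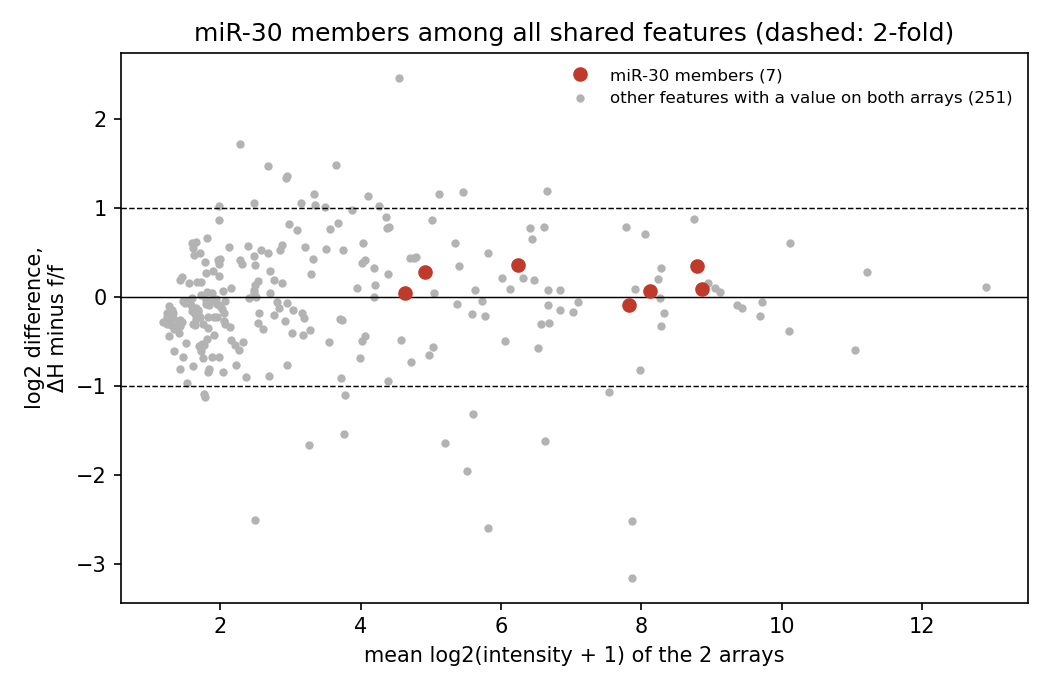
Log2 difference between the arrays (liver-null minus control) against the mean log2(intensity + 1), for the 7 miR-30 members (red) and the other features with a value on both arrays (grey). Dashed lines mark 2-fold, and all members lie between -0.09 and 0.35, inside them.

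Whether a small difference was positive depended on how the arrays were scaled. The Hnf4aΔH array's median log2 level over the shared features exceeded that of the control array by 0.15. Relative to this shift, miR-30e-5p stood at 0.20, miR-30a-5p at 0.19 and miR-30a-3p at 0.13. On the same scale miR-30c-5p stood at -0.07, miR-30d-5p at -0.09, miR-30e-3p at -0.11 and miR-30b-5p at -0.24. As deposited, 6 members were above 0 and 1 below, beside 116 above and 142 below among all 258 shared features. Relative to the shift, 3 members were above and 4 below, beside 91 above and 167 below among all shared features. The median of the 258 differences themselves was -0.06, opposite in sign to the shift. Subtracting the shift therefore does not centre the features on 0. Only miR-30b-5p, at -0.09 as deposited, lay below that median.

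Only miR-30a-5p, miR-30e-5p and miR-30a-3p were positive under all 7 settings tried, namely the deposited values with a pseudocount of 1, 4 scalings and 2 other pseudocounts. For miR-30a-5p the log2 difference ranged from 0.19 to 0.39, for miR-30e-5p from 0.20 to 0.45 and for miR-30a-3p from 0.08 to 0.30. These are settings of the same 2 arrays, so a kept sign is no measure of repeatability. No member reached 1.5-fold under any of them.

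**Figure D3:**
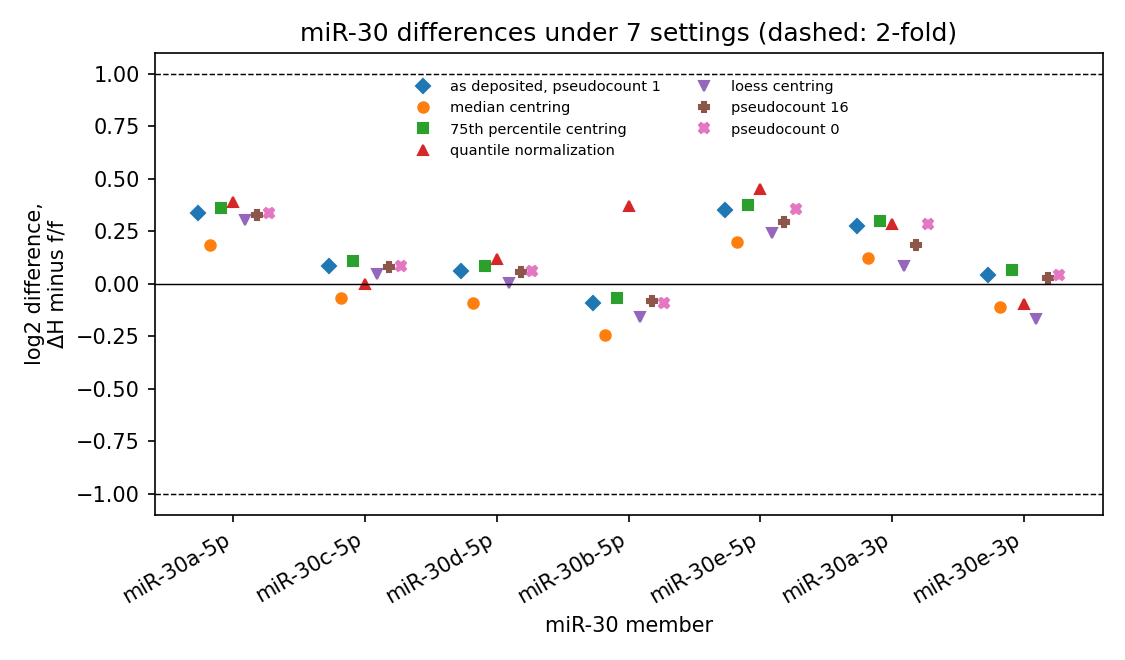
Log2 difference (liver-null minus control) of each miR-30 member under 7 settings, marked by symbol and colour, with dashed lines at 2-fold. All points lie between -0.24 and 0.45, and those of miR-30c-5p, miR-30d-5p, miR-30b-5p and miR-30e-3p fall on both sides of 0.

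The order of the members by brightness was almost the same on both arrays. Probes differ in efficiency, so the ranks describe signal and not abundance. miR-30a-5p ranked 14 among the 340 features measured in Hnf4aΔH liver and 16 among the 299 measured in control liver. miR-30c-5p ranked 15 on both arrays, so the 2 brightest members exchanged places. miR-30d-5p ranked 22 on the liver-null array and 24 on the control array, and miR-30b-5p ranked 25 on the liver-null array and 27 on the control array.

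The remaining members were dimmer and kept their order within the family. The rank of miR-30e-5p was 42 on the liver-null array and 50 on the control array. The rank of miR-30a-3p was 63 on the liver-null array and 69 on the control array, while that of miR-30e-3p was 75 on the liver-null array and 70 on the control array. miR-30e-3p was the only member with a lower place on the liver-null array. Together the 7 members held 5.72% of the total intensity on the liver-null array and 5.08% on the control array. Of this, the 5p arms made up 5.52% of the total on the liver-null array and 4.91% on the control array.

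The 5p arm was the brighter one at both hairpins measured on both sides. One arm of a hairpin is usually loaded into Argonaute in preference to the other, and the ratio of arms describes that choice. Here it compares 2 probes of unknown relative efficiency, so that only its change between arrays can be read. For miR-30a the 5p intensity was 15.3 times the 3p intensity on the liver-null array and 14.8 times on the control array. The log2 ratio was 3.90 on the liver-null array and 3.84 on the control array, a change of 0.06.

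For miR-30e the 5p intensity was 3.51 times the 3p intensity on the liver-null array and 2.82 times on the control array. The log2 ratio was 1.77 on the liver-null array and 1.46 on the control array, a change of 0.31. The change in ratio was thus larger at miR-30e than at miR-30a, with a log2 difference of 0.35 for the miR-30e 5p arm and 0.04 for its 3p arm. The miR-30e 5p arm differs by 1 base of 22 from the brighter miR-30a-5p. How far the probe for either binds the other was not tested, so the larger change cannot be assigned to the miR-30e arms alone. Both changes were positive under every setting tried, from 0.05 to 0.22 for miR-30a and from 0.27 to 0.55 for miR-30e. Centring on the median or the 75th percentile takes the same constant from both arms, so by construction it leaves these changes as they were. Whether either change exceeds the spread between livers cannot be tested with 1 array per genotype.

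**Figure D4:**
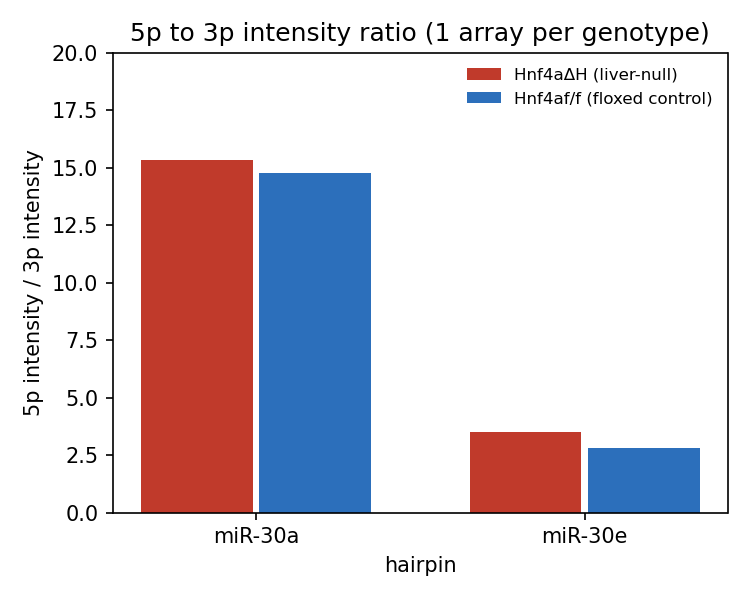
Ratio of 5p to 3p intensity at the miR-30a and miR-30e hairpins on the Hnf4aΔH array (red) and the Hnf4af/f array (blue), 1 array each. The ratios were 15.3 and 14.8 for miR-30a and 3.51 and 2.82 for miR-30e.

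The features most like the family in signal were sought around miR-30d-5p, the 5p member of median brightness, by the Euclidean distance between log2 levels over the 2 arrays. The nearest feature with a single accession, MIMAT0000532, lay at a distance of 0.18, with an intensity of 321 on the liver-null array and 280 on the control array. MIMAT0000527 followed at 0.21, with an intensity of 307 on the liver-null array and 309 on the control array. MIMAT0000125 lay at 0.28, with an intensity of 346 on the liver-null array and 277 on the control array. These accessions are not paired with names in the tables used here.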

How the data were processed

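Total RNA was labelled with Hy5 using an LNA array kit, in 1 channel per sample, per the labels' protocols. The authors deposited 1 table of processed intensity values on a linear scale. The sources used here do not state the background correction, the filter or the normalization. The arrays gave 340 (liver-null) and 299 (control) values, with totals of 28342 and 28849. Missing values were not replaced. The number of arrays limits the precision.

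Intensities were converted to log2(intensity + 1), which understates the change of dim features, and subtracted as liver-null minus control over the 258 shared features. No test was possible. Alternatives were centring on the median or 75th percentile, quantile normalization, loess centring (span 0.4), pseudocounts of 16 and 0, a 1.5-fold threshold, the 5p arms alone and a filter on dim features. The scaling code was tested on simulated arrays, with levels mostly above the median of the shared features and planted changes larger than any member showed. The code for ranks, arm ratios and nearest features was not part of that test. All members were to be named, with the 3 features nearest the median 5p member. Members and lists were chosen with earlier results of these data known. Cell type marker lists and other miR-30 arms could not be matched, since no reference row (0) held a miRBase accession. Software was statsmodels 0.14.6 for loess, numpy 2.4.6 and pandas 2.3.3 for arithmetic and matplotlib 3.10.9 for plots, under Python 3.11.15.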

Additional observations from a re-analysis of the deposited data

How the results depend on the processing

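No paired analysis was possible because there was a single array per genotype. Leaving out replicates was impossible for the same reason. The count of members at least 2-fold higher or lower was 0 under all 6 other scalings and pseudocounts and at 1.5-fold. The members' median log2 difference of 0.084 became -0.069 with median centring, 0.11 with 75th percentile centring, 0.28 with quantile normalization and 0.049 with loess centring. The 5p to 3p change of 0.061 for miR-30a became 0.11 with quantile normalization, 0.22 with loess centring, 0.14 at pseudocount 16 and 0.052 at pseudocount 0. That of 0.31 for miR-30e became 0.55 with quantile normalization, 0.41 with loess centring and 0.27 at pseudocount 16. Of 42 recomputed member differences, 6 changed sign. With median centring miR-30c-5p was -0.069, miR-30d-5p -0.091 and miR-30e-3p -0.11. With quantile normalization miR-30b-5p was 0.37 and miR-30e-3p -0.10, and with loess centring miR-30e-3p was -0.17. Centring on the median or the 75th percentile subtracts a constant from every difference. Quantile normalization sets each level by its rank among the shared features of an array. With it miR-30c-5p was 0, which is not counted as a change of sign. Loess centring subtracts a fit that varies with mean brightness, and a pseudocount acts most on dim features. These moves thus follow from the settings, and why the arrays differed in rank or trend was not tested. The share of features at least 2-fold apart was 12% of all shared features and 18.6% of those at or above the median brightness.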
